A study of Mus musculus with 2 samples.

Results

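Integrins and their counter-receptors hold lymphocytes to other cells and to matrix. The genes described here are 9 of 27573 gene names, counted after the array's probes were renamed by RefSeq where possible, clone and probe identifiers included. They are the alpha chains Itgae, Itgal, Itga4 and Itga6, the beta chains Itgb7, Itgb2 and Itgb1, and the ligands Icam1 and Vcam1. Every spot whose gene name equals one of these symbols was taken, which gave 23 of 41174 probes. RNA came from the thymus, where T cells are made, of mice with a Pla2g10 transgene (genotype Pla2g10-Tg/+, which the labels call overexpressing) and of their control littermates, all 6 months old on the C57BL/6 strain. The labels do not give the promoter that drives the transgene. RNA of 4 mice was pooled per genotype, and a transgenic and a control pool were hybridised together on each of 2 two-colour arrays. The transgenic pool carried Cy5 (red) on array 1 and Cy3 (green) on array 2, and the control pool the other dye. Each ratio below sets the transgenic pool over the control pool on the log2 scale. It is given per array, then as a mean ± SD over the arrays (n = 2, taken as 1 pool per genotype). Whether the arrays hold separate pools is not stated in the labels. If they hold the same pools, the SD holds measurement error alone. The spread between animals was not measured.

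An integrin is a pair of one alpha and one beta chain, and the pairing sets what it binds. The alpha E chain (CD103) pairs with beta 7 and binds E-cadherin on epithelium. The alpha 4 chain pairs with beta 7 to bind the mucosal addressin, or with beta 1 to bind VCAM1 and fibronectin. The alpha L chain pairs with beta 2 to form LFA1, the receptor for ICAM1 and ICAM2, and alpha 6 pairs with beta 1 to bind laminin. In the thymus these receptors tether thymocytes to epithelial and dendritic cells and to the vessels by which progenitors enter.

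In the transgenic thymus the beta 7 chain transcript was 1.30-fold that of the control, the largest difference among the measured adhesion genes. The alpha 4 chain transcript was 1.20-fold the control level, but on array 2 it stayed under the size used here to call a shift. The beta 2 chain of LFA1 read lower on both arrays, at 0.849 of the control level, also just short of a call. Itgal, Itga6, Itgb1 and Icam1 differed in direction between the arrays at the brightest probe of each. Vcam1 read 0.10 and 0.04 on the log2 scale, and Itgae was too dim to measure.

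The promoter sequences of Itgb7 and Itga4, the genes with the highest ratios, are shown because they lay furthest above the control on both arrays together. The RefSeq promoter table (GRCm38.p6) held 4 of the 9 genes. Each sequence is the 250 bases before the annotated start, 5′ to 3′ on the gene's strand. For Itgb7 this is chr15:102231936-102232185 on the minus strand, and for Itga4 chr2:79255176-79255425 on the plus strand. Capitals mark exact matches, on either strand, to a RUNX core (TGTGGT), an ETS core (AGGAAG) and an SP1 box (GGGCGG), which are motifs of factors active in lymphocytes or at GC-rich promoters.
Itgb7: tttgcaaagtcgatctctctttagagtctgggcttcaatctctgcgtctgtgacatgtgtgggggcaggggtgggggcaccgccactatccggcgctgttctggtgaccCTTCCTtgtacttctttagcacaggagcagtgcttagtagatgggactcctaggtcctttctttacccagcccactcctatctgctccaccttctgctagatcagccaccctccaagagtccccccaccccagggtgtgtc
Itga4: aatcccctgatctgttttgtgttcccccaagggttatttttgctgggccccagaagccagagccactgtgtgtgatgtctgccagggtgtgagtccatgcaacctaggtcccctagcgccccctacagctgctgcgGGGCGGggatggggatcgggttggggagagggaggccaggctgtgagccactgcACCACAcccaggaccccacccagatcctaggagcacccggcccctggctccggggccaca
The Itgb7 sequence held 1 ETS match, written here as its reverse complement, and no RUNX or SP1 match. The Itga4 sequence held 1 SP1 match and 1 RUNX match, the latter as its reverse complement, and no ETS match. The 2 windows thus shared none of the 3 motifs. Over 27025 promoters of the same length, 14.2% held the RUNX core, 29.2% the ETS core and 32.9% the SP1 box on either strand.

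Of the 23 probes, 10 were well above background, by the scanner software's flag, in all 4 channels (both genotypes on both arrays), and these 10 covered 8 of the 9 genes. None of the 23 was saturated. The other 13 were not measured, as 8 were above background in 0 channels, 3 in 1 channel and 2 in 2 channels. Signals above local background ran from 45.8 to 474 units over the 10 measured probes and from 0.600 to 39.3 units over the other 13. Each array was normalized by loess, which removes the mean difference between the dyes at each brightness, and the normalized intensities below carry an offset of 50 units that shrinks ratios of dim probes. A probe's brightness depends on its sequence, so levels are compared between genotypes and not between genes.

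Itgb7 encodes the beta 7 chain shared by the CD103 receptor and the gut-homing alpha 4 beta 7 receptor. Its only probe (A_51_P359603, transcript NM_013566) lies on mm8 at chromosome 15, 102044053 to 102044112. The normalized intensity was 276 in the transgenic and 205 in the control channel on array 1, and 266 against 210 on array 2. Both transgenic values lay above both control values. The log2 ratio was 0.43 on array 1 and 0.34 on array 2, a mean of 0.38 ± 0.06. Before normalization the transgenic channel read 304 units and the control channel 133 units above local background on array 1, and 152 against 200 on array 2. The red channel was thus the brighter on both arrays, and the excess on array 1 exceeded the deficit on array 2. The scanner software's own error model, in the authors' deposited files, gave p = 0.0124 on array 1 and p = 0.0168 on array 2 for this probe; these unadjusted p-values cover the measurement error of 1 array only.

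A gene was called shifted if its log2 ratio was at least 0.25 in size, with 1 sign, on each array. Itgb7 was the 1 of 8 measured adhesion genes called higher, where 1.68% of the 9397 measured genes were called higher. None of the 8 was called lower, where 1.31% of all measured genes were. By a stricter rule, a mean log2 ratio of at least 1 in size and at least 0.5 in size on each array, 0 of 8 adhesion genes and 0.0319% of all genes were called. The dye contrast, which reads red over green regardless of genotype, called 0 of the 8 genes under the shift rule, where it called 0.234% of all genes higher in red and 0.309% lower. Itgb7 had a higher mean ratio than 99.0% of the measured genes. Other processing called other numbers of genes. With an offset of 0 the rule called 2 of the 8 adhesion genes higher and 1 lower, beside 5.82% and 4.15% of all genes. In the scanner software's ratios it called 2 and 1, beside 6.96% and 5.08%, and the series table gave the same counts. Array 1 alone, with the size asked of that array only, called 2 of 8 higher and 0 lower, beside 9.17% and 7.19% of all genes. Array 2 alone called 2 higher and 2 lower, beside 4.3% and 5.14%. limma's moderated test takes each array as a measurement. It sets the mean ratio against the spread between arrays, moderated over all genes, and not against the spread between animals. The limma test called 1 of 8 higher (Itgb7, adjusted p = 0.0411) and 0 lower, beside 0.99% and 0.617% of all genes. With median centring of each array in place of loess the Itgb7 call was lost, as array 1 read 0.92 and array 2 read -0.25. That setting called 0 of 8 higher and 0 lower, beside 0.149% and 0.0426% of all genes. Under that setting all 8 adhesion genes, and 93.5% of all measured genes, had opposite signs on the 2 arrays, and the arrays correlated across genes at r = -0.454, against 0.311 with loess.

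**Figure D1:**
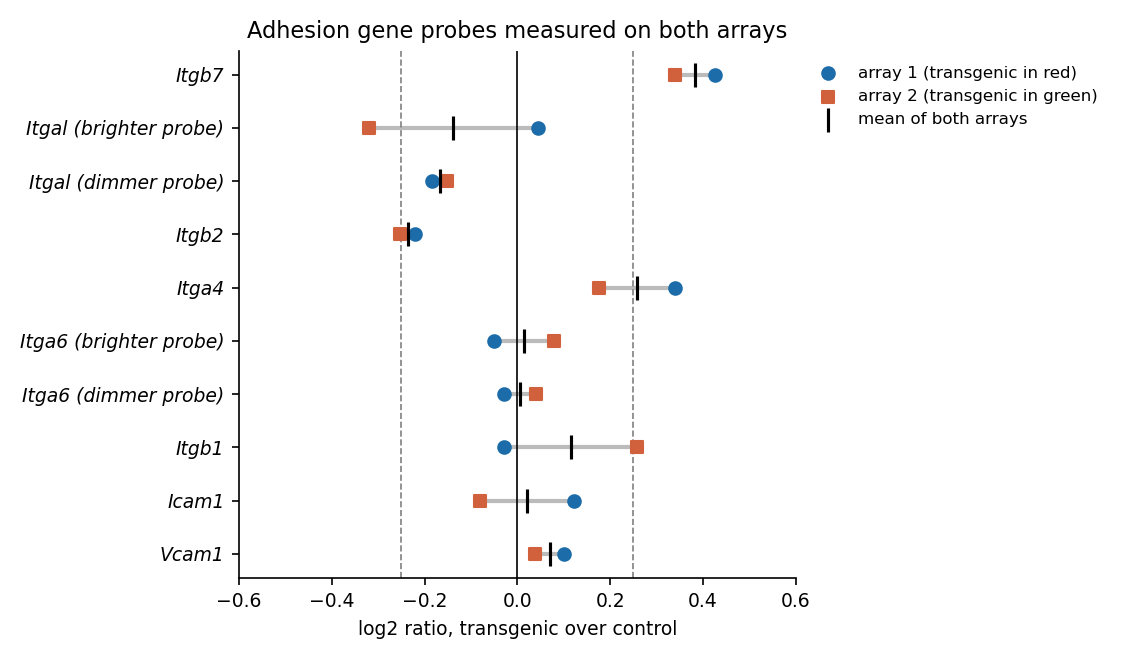
Log2 ratios of transgenic over control for the 10 measured probes of lymphocyte adhesion genes, with circles for array 1, squares for array 2 and a vertical tick for the mean; dashed lines mark the shift size of 0.25. Itgb7 is the only gene with both arrays beyond a dashed line, while Itga4, Itgb2, Itgb1 and the brighter Itgal probe each have a single array beyond it.

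Itga4 encodes the alpha 4 chain. Its measured probe (A_52_P223495, NM_010576, mm8 chromosome 2, 79131372 to 79131431) read 251 in the transgenic and 199 in the control channel on array 1, and 238 against 210 on array 2. The transgenic values lay above the control values on both arrays. The log2 ratio was 0.34 on array 1 and 0.18 on array 2, a mean of 0.26 ± 0.12, higher than that of 96.6% of measured genes. It missed the shift rule on array 2. It met the rule with an offset of 0 (0.41 and 0.26) and in the scanner software's ratios (0.42 and 0.27). The array carries 5 further Itga4 probes, none of them measured, with signals of 4.38 to 39.3 units above local background and mean log2 ratios between -0.02 and 0.10. The Itga4 value therefore rests on 1 of 6 probes. The 2 chains of the alpha 4 beta 7 receptor both read higher in the transgenic pool, with Itga4 below Itgb7 by 0.09 on array 1 and by 0.16 on array 2.

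Itgae, which encodes the alpha E chain, the other partner of beta 7, was not measurable. Its brighter probe (A_51_P352076, NM_008399) passed the background flag only in the transgenic channel of array 1, that is in 1 of 4 channels. That channel read 22.9 units above local background and the control channel 16.5, while on array 2 both read 15.6. The log2 ratio was 0.14 on array 1 and 0.01 on array 2 (0.08 ± 0.09), values that the offset of 50 draws towards 0 at such signals. With an offset of 0 the probe read 0.58 and 0.05. In the authors' deposited files the software's ratios were 0.96 (p = 0.0426) on array 1 and 0.13 (p = 0.781) on array 2. No reading of Itgae as equal or different between the pools was made from these signals. The second probe (A_52_P549279), which the array design assigns to transcript variant 2, was above background in 0 channels. The mm8 matches of these probes span 1459 and 986 bases (chromosome 11, 72961798 to 72963256 and 72947929 to 72948914), against 60 bases for 20 of the 23 probes, so each target sequence is split in the genome.

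Of the LFA1 chains, the beta chain gene read lower on both arrays, and the alpha chain gene at 1 of its 2 measured probes did. Itgb2 encodes the beta 2 chain common to the leukocyte integrins, and its probe (A_51_P262208, NM_008404) lies on mm8 at chromosome 10, 77008949 to 77009008. The transgenic channel read 146 and the control channel 170 on array 1, and 141 against 168 on array 2. Both transgenic values lay below both control values, and the log2 ratio was -0.22 on array 1 and -0.25 on array 2 (-0.24 ± 0.02). Array 1 fell short of the shift size, so Itgb2 was not called, though only 3.44% of measured genes had a lower mean ratio. It met the rule with an offset of 0, at -0.35 and -0.37, and in the scanner software's ratios, at -0.39 and -0.38. The software's error model gave p = 0.0676 and p = 0.0720 for Itgb2 on arrays 1 and 2 in the authors' deposited files.

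Itgal encodes the alpha L chain, and its 2 measured probes disagreed in how steady they were. The brighter probe (A_52_P424970, clone AK156251, mm8 chromosome 7, 127125992 to 127126051) read 363 in the transgenic and 353 in the control channel on array 1, and 315 against 394 on array 2. Its log2 ratio was 0.04 on array 1 and -0.32 on array 2 (-0.14 ± 0.26), so the genotypes did not separate. The dimmer probe (A_51_P466378, NM_008400, chromosome 7, 127124794 to 127124853) read 107 against 121 on array 1 and 112 against 125 on array 2. Both arrays lay below 0 there, at -0.18 and -0.15 (-0.17 ± 0.02), and neither reached the shift size, though both did with an offset of 0 (-0.34 and -0.27).

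**Figure D2:**
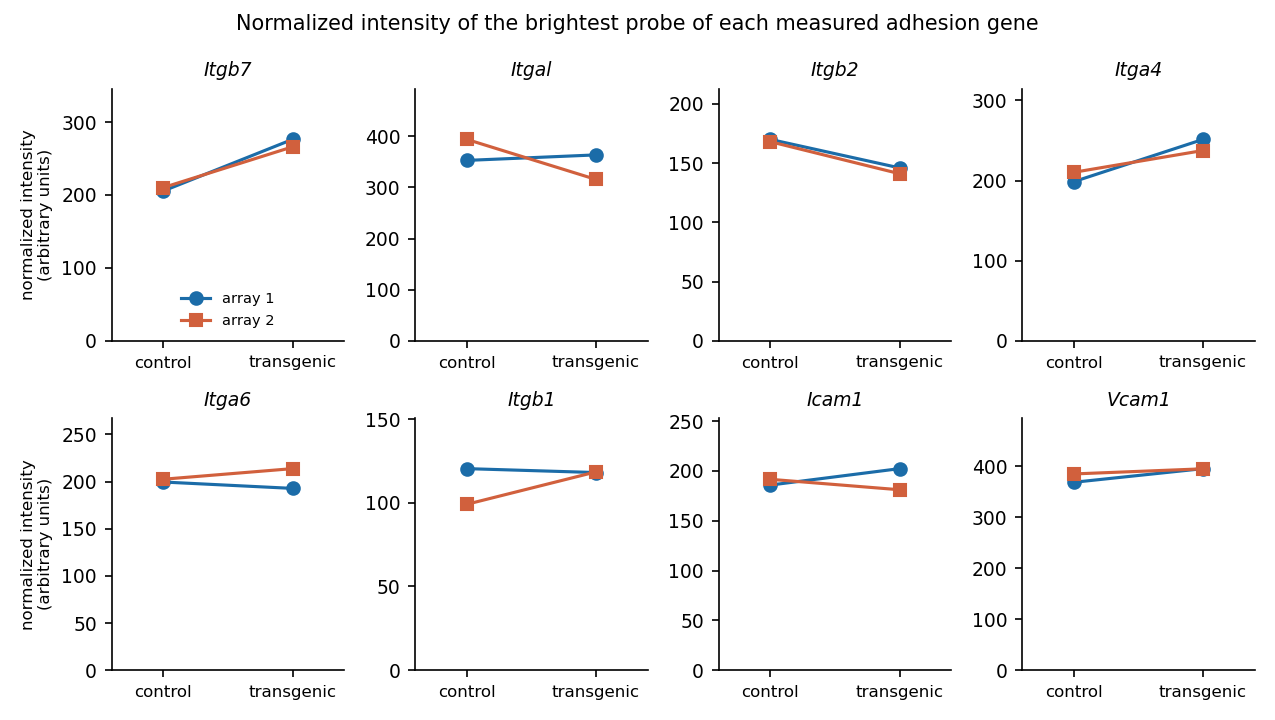
Normalized intensity (arbitrary units, linear axis from 0, an offset of 50 included) of the brightest probe of each measured adhesion gene in the control and transgenic channels, with circles for array 1 and squares for array 2. The Itgb7 lines rise from 205 and 210 to 276 and 266, the Itgb2 lines run down from 170 and 168 to 146 and 141, and those of Itgal, Itga6, Itgb1 and Icam1 slope in opposite directions on the 2 arrays.

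Itgb1 encodes the beta 1 chain, the partner of alpha 4 in the VCAM1 receptor and of alpha 6 in a laminin receptor. Its measured probe (A_51_P286527, NM_010578, mm8 chromosome 8, 131618682 to 131618741) read 118 against 120 on array 1 and 118 against 99.1 on array 2, transgenic before control. The log2 ratios of -0.03 and 0.26 (0.11 ± 0.20) differed in sign. A second Itgb1 probe was above background in 1 channel and read -0.06 ± 0.02. Another, designed to the beta 1D splice form known from muscle (U37029), was above background in 0 channels. Itga6, the alpha 6 chain gene, read 193 against 200 on array 1 and 214 against 202 on array 2 at its brighter probe (A_51_P262401, mm8 chromosome 2, 71658755 to 71658814). Its 2 measured probes gave 0.01 ± 0.09 and 0.01 ± 0.05, with array 1 below 0 and array 2 above 0 at both.

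The 2 ligands among the 9 genes showed no shift. Icam1, which encodes the inducible ligand of LFA1, read 202 against 186 on array 1 and 181 against 192 on array 2 (A_51_P408506, mm8 chromosome 9, 20779144 to 20779203). The log2 ratio was 0.12 on array 1 and -0.08 on array 2 (0.02 ± 0.14). Vcam1, the ligand of alpha 4 beta 1, had the brightest channel of the 10 probes above local background, 474 units. It read 396 against 369 on array 1 and 395 against 385 on array 2 (A_51_P210956, mm8 chromosome 3, 116102302 to 116102361). Both arrays lay slightly above 0, at 0.10 and 0.04 (0.07 ± 0.05). The other 2 Vcam1 probes and the other Icam1 probe were not measured.

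In order of the mean ratio the genes ran from Itgb7 (0.38) through Itga4, Itgb1, Vcam1, Icam1, Itga6 and Itgal to Itgb2 (-0.24). From Itgb1 to Itgal, neighbours in this order had array values that overlapped. The array values of Itga4 and Itgb1 overlapped too, the higher Itga4 value and the lower Itgb7 value were both 0.34 to 2 decimals, and both Itgb2 values fell within the range of the Itgal values. The median over the 8 genes was 0.05, beside -0.00226 over all 9397 measured genes. The arrays gave 1 sign for 4 of the 8 genes (Itgb7, Itga4, Vcam1 and Itgb2) and for 57.4% of all measured genes. The SD between arrays had a median of 0.10 over the 8 genes and 0.09 over all genes.

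**Figure D3:**
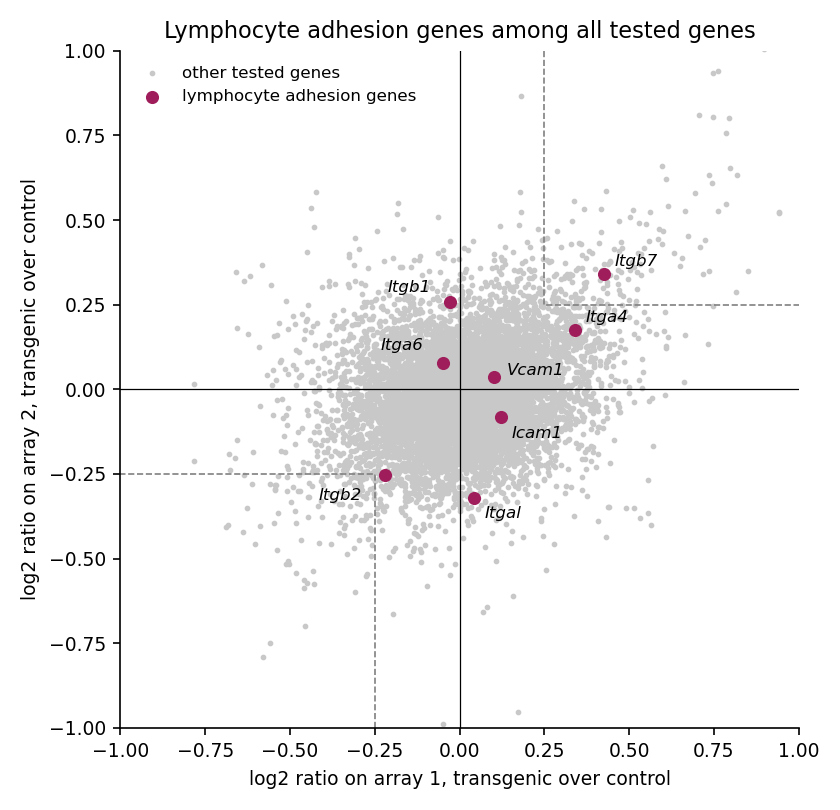
Log2 ratios of transgenic over control on array 1 (horizontal) and array 2 (vertical) for 9397 measured genes in grey and 8 lymphocyte adhesion genes in colour; 5 genes lie outside the axes, and dashed lines bound the regions of the shift rule. Itgb7 lies inside the upper right region, Itga4 below its edge and Itgb2 at the edge of the lower left one.

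Of other genes that bind these receptors, 4 of 20 were measured, with 1 called higher and 1 called lower, beside 1.68% and 1.31% of all measured genes. Cdh1 encodes E-cadherin, the ligand of the CD103 receptor, and its log2 ratio was 0.37 on array 1 and 0.39 on array 2 (0.38 ± 0.01). Icam2, which encodes the constitutive ligand of LFA1, was at -0.26 and -0.49 (-0.38 ± 0.16). F11r, the gene of the junctional molecule JAM-A that also binds LFA1, was at 0.30 ± 0.13, and the laminin chain gene Lamc1 at -0.04 ± 0.09. The addressin gene Madcam1 and the fibronectin gene Fn1 were above background in 0 channels. With median centring Cdh1 read 0.66 and 0.13 and Icam2 0.32 and -1.20, and neither was called.

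Beside the counts in this paragraph, the shift rule called 1.68% of all measured genes higher and 1.31% lower, with a median ratio of -0.00226. Of other integrin chains, 4 of 19 were measured and 0 were called, with a median of 0.09 and all 4 means above 0. Itga1 (-0.12 and 0.16) and Itgb3 (0.51 and -0.35) differed in sign between the arrays. Itgb4, an epithelial laminin receptor chain, was at 0.12 ± 0.14, and Itgb5, a partner of alpha V, at 0.10 ± 0.10. The myeloid chain genes Itgam and Itgax were above background in 0 channels. Among the genes that switch integrins to the active state from inside the cell, 25 of 29 were measured and 0 were called. Of the 25 means 5 were above 0, with a median of -0.05. Rap1a (-0.20 and 0.11), Pxn (-0.22 and 0.11) and Rapgef1 (-0.21 and 0.15) were among those that differed in sign between the arrays. The kindlin gene Fermt3 was at -0.52 on array 1 and -0.03 on array 2 (-0.28 ± 0.35), and the adaptor gene Skap2 at 0.34 and 0.03 (0.19 ± 0.21). Of other leukocyte adhesion receptors, 18 of 24 were measured and 0 were called, with a median of -0.02. The tetraspanin gene Cd9 was at 0.28 ± 0.20, and Selplg, the P-selectin ligand gene, at -0.18 ± 0.05.

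**Figure D4:**
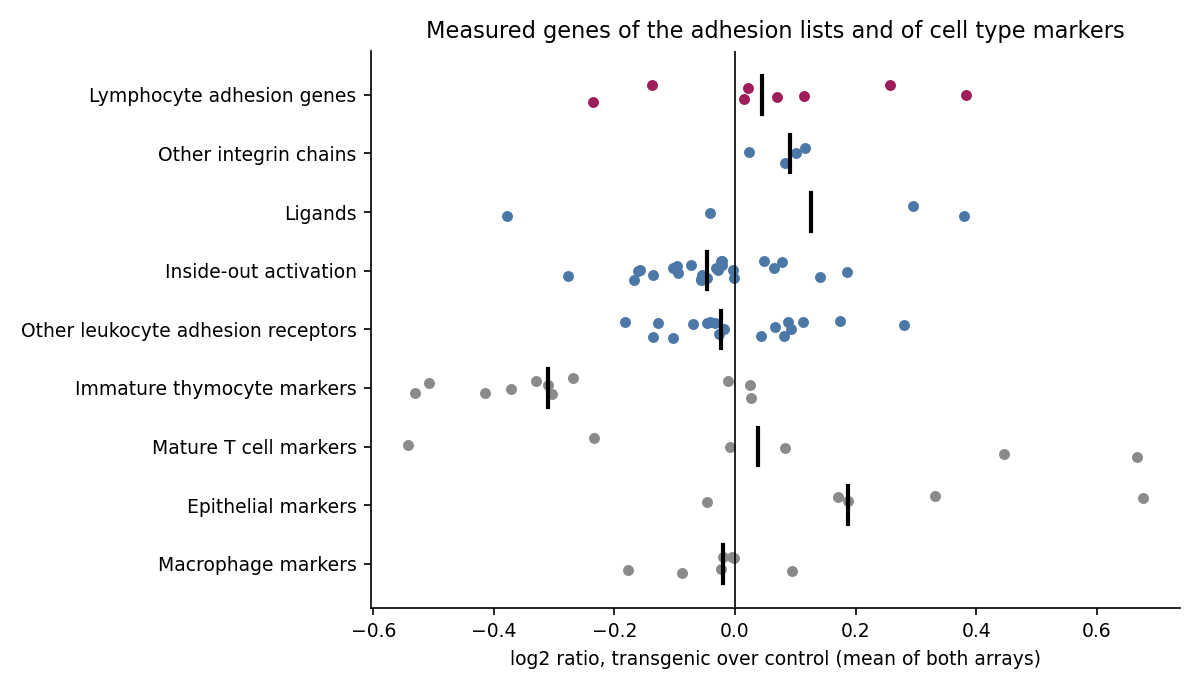
Mean log2 ratio of transgenic over control, 1 point per measured gene, for the lymphocyte adhesion genes, 4 further adhesion lists and 4 lists of cell type markers; black ticks are medians and the vertical scatter of points carries no value. The lymphocyte adhesion genes spread from -0.24 to 0.38 around a median of 0.05, and immature thymocyte markers have a median of -0.31.

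Markers of cell types moved between the pools alongside these genes, and their part in the adhesion values was not tested. In bulk RNA, fewer cells of a type and less RNA per cell cannot be told apart. Beside the marker counts below, the shift rule called 1.68% of all measured genes higher and 1.31% lower. Of 12 immature thymocyte markers 11 were measured, with 6 called lower, 0 called higher and a median of -0.31, and Rag2 was above background in 0 channels. Their summed normalized intensity was 25011 and 25066 in the transgenic pool on arrays 1 and 2, against 31188 and 31463 in the control. The lowest were Ccr9, a chemokine receptor of immature thymocytes, at -0.53 ± 0.10, and the coreceptor gene Cd8a at -0.51 ± 0.00. The measured Cd8a probes ran from -0.56 to -0.19. Cd1d1 (0.03), Cd4 (0.02) and Satb1 (-0.01) lay near 0. Arpp21, among those called lower at -0.37, had another measured probe at 0.45. Beside Cdh1 and the CD103 chains, 5 of 7 thymic epithelial markers were measured, 1 of them called higher (Krt5, a medullary keratin, at 0.68 ± 0.10), with a median of 0.19. Krt14 was at 0.33 ± 0.14 and Aire at 0.19 ± 0.03. Krt8 (-0.05 and 0.39) and Psmb11 (-0.16 and 0.07) differed in sign between the arrays. The sums over the 5 epithelial markers were 3156 and 3540 in the transgenic pool and 3139 and 2888 in the control. Cldn4 and Foxn1 were above background in 0 channels. Beside Icam2 and Vcam1, 1 of 9 endothelial markers was measured (Egfl7, -0.01 ± 0.00, with intensities of 92.8 and 97.6 against 93.3 and 98.6), and 7, among them Cdh5 and Kdr, were above background in 0 channels.

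Marker values of other cell types were mixed. Of 7 mature T cell markers 6 were measured, 2 called higher (Ccr7 at 0.45 ± 0.15 and Ms4a4b at 0.67 ± 0.17) and 1 lower (Klf2 at -0.54 ± 0.20, whose other probe read 0.59), with a median of 0.04. Their sums were 4025 and 3894 in the transgenic pool and 5658 and 4665 in the control. Klf2 carried that gap, as without it the sums were 1344 and 1326 against 1350 and 1275. S1pr1 was above background in 0 channels. Macrophage markers, 7 of 8 measured, had 0 calls and a median of -0.02, beside Itgb2, which myeloid cells also carry. Neutrophil markers, also myeloid, had 4 of 5 measured, all 4 above 0, with a median of 0.35. The part of either cell type in the Itgb2 value was not tested. With median centring, of Ccr9, Cd8a, Krt5, Ms4a4b, Klf2 and Ccr7, Ccr7 alone (0.57 and 0.31) had 1 sign on both arrays. Calls were 4 of 4 higher among adipocyte, 2 of 4 among neutrophil, 2 of 3 among erythroid and 2 of 3 among fibroblast markers measured. Dendritic, regulatory T and B cell markers had 0 calls among 2, 2 and 1 measured, and 0 of 5 natural killer and gamma-delta markers were measured. The only Pla2g10 probe was above background in 0 of 4 channels, so the array does not check the transgene.

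**Figure D5:**
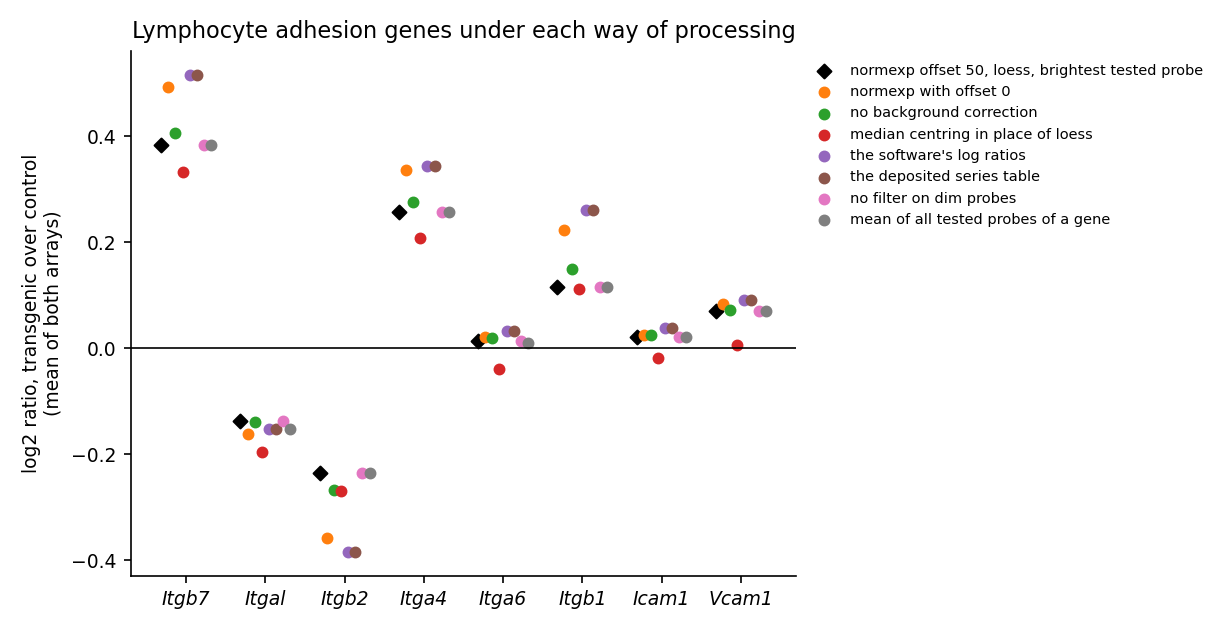
Mean log2 ratio of transgenic over control of the 8 measured adhesion genes under 8 ways of processing, with black diamonds for the setting used in the text. Itgb7 lies between 0.33 and 0.52 and Itga4 and Itgb2 keep to their side of 0 throughout, while Itga6 and Icam1 cross 0 with median centring.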

How the data were processed

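RNA of thymus was measured on 2 dye-swapped two-colour arrays, labelled from 500 ng of RNA. The deposited scanner files give mean and local background intensity per spot and channel on a linear scale, uncorrected. Per the file headers, the software was Feature Extraction 9.5.1.1. The deposited LogRatio holds log10 ratios (red to green) after the software's own correction, with a p-value from its error model, per the file headers. The series table, deposited by the authors, equals the log10 ratio of the processed signals within 5e-10, unturned for dye and uncentred.

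Intensities were corrected by normexp (offset 50), normalized by loess within arrays (limma 3.58.1, R 4.3.3) and turned to transgenic over control. Control spots had weight 0 and spots with an outlier mark (46 and 37 per array) were dropped. For normalized intensities the arrays were then scaled by Aquantile. A probe was measured if the channels of 1 genotype were well above background on each array (12235 of 41174 probes), and the brightest probe stood for a gene. Measured genes had a median signal of 95.9 units above local background, and 27.0% had under 50 units, where the offset shrinks ratios most. The number of arrays limits the precision. The labels do not say that the arrays hold separate pools, so they were taken as a technical dye swap and no test across animals was made. Other probes were named by RefSeq accession, symbol or synonym (GRCm38.p6). No annotation of mm8 was used, so the exon or UTR of a probe is not given.

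The genes, the 4 adhesion lists and the 13 marker lists were chosen with earlier results of these data known. All 9 genes are named. From each adhesion list the text names genes meeting the shift rule, at most 6, or, where fewer than 2 met it, the 2 largest ratios. The marker genes and other list genes named were picked with their values in view. The calling rules were also run on simulated dye-swapped arrays with a straight-line dye trend, and no value given here rests on that run. Alternatives covered offset, background, normalization, source of values, dim-probe filter, probe choice and each array alone.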

Additional observations from a re-analysis of the deposited data

How the results depend on the processing

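The count of adhesion genes called higher, 1 (Itgb7), was 2 (Itgb7 and Itga4) with an offset of 0, the software's log ratios or the series table, and 0 with median centring. The count called lower, 0, was 1 (Itgb2) with an offset of 0, the software's log ratios or the series table. On 1 array alone, where the size is asked of that array only, 2 genes were called higher on either array (Itgb7 with Itga4 on array 1 and with Itgb1 on array 2), and the count lower ranged from 0 on array 1 to 2 on array 2 (Itgal and Itgb2). Neither count differed without background correction, with no filter on dim probes or with the mean of all measured probes of a gene, and the count at least 2-fold different was 0 under all 9 alternatives. The median over the adhesion genes ranged from -0.00639 to 0.07. limma's moderated test called Itgb7 and no other of the 8 genes, the next being Itga4 (adjusted p = 0.217, limma).

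Over 9 alternatives the mean ratio of Itgb7 ran from 0.33 to 0.52, of Itga4 from 0.18 to 0.34 and of Itgb2 from -0.38 to -0.22. Each mean kept its sign, but with median centring the single arrays did not. There arrays 1 and 2 read 0.92 and -0.25 for Itgb7, 0.82 and -0.40 for Itga4, and 0.18 and -0.72 for Itgb2. The means of Itgal, Itga6, Itgb1 and Icam1 changed sign under at least 1 of the alternatives. The ratio within an array already pairs the genotypes. No further pairing by replicate number was possible, because each number belongs to an array that holds both pools.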

Other observations

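Of probes outside the 23, 2 have descriptions that name an integrin alpha 6 clone product while their gene name is a clone or cluster identifier. Both were above background in 0 channels. The probe A_52_P189228 read -0.05 on array 1 and -0.15 on array 2 (-0.10 ± 0.07), and A_52_P287772 read -0.01 and 0.08 (0.04 ± 0.06). They add no value for Itga6 at this signal.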
